A study of Homo sapiens with 6 samples.

Results

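The 39 genes described here were chosen by name and cover glycolysis and the transcriptional response to low oxygen. They comprise 17 glycolytic enzymes, 4 glucose and lactate transporters, 3 switches of glycolytic flux, 6 hypoxia-inducible factor (HIF) subunits and their oxygen-sensing regulators, and 9 HIF targets. All 39 were among the 15379 gene symbols of the deposited count table, and all 39 were among the 12056 genes with enough reads to be tested. The cells were HaCaT, an immortalised line of human keratinocytes. In one group they were warmed to 41C daily, for 1 h on each of 3 days, and in the other the same daily hour was spent at 37C, with 3 poly(A) RNA libraries per group. The series title places the study in the field of heat, keratinocyte paracrine signals and pigmentation, and the comparison asks which transcripts differ after repeated mild heat.

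Glycolysis splits glucose into pyruvate in the cytosol, and lactate dehydrogenase turns pyruvate into lactate so that the pathway can go on. Keratinocytes of the epidermis live at low oxygen and depend heavily on this route. HIF is a dimer of an oxygen-sensitive alpha subunit and the stable subunit ARNT. Prolyl hydroxylases of the EGLN family mark the alpha subunit when oxygen is present, VHL then directs it to degradation, and in hypoxia the spared dimer binds the hypoxia response element near its targets. Most of this control acts on protein, so transcripts of the alpha subunits need not follow HIF activity. Many glycolytic genes are HIF targets themselves, which makes enzymes and other targets natural classes to set side by side.

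The core of the hypoxia response element was searched for as ACGTG or GCGTG on both strands, with overlapping matches joined. RefSeq promoter windows on GRCh38.p14, each with 250 bases before and 50 after a transcript start, were given for 33 of the 39 genes; the others were SLC2A3, SLC16A1, VHL, NDRG1, BNIP3L and VEGFA. The core was found in 42 of their 63 windows (66.7%), against 48.4% of all 35116 windows. It was found in 23 of 37 windows of the enzymes (62.2%) and in 8 of 9 windows of the HIF targets (88.9%). Windows of one gene can overlap, and a match is a description of letters, not of a bound site. Where ACGTG meets its complement the letters are CACGTG, which is also the E-box bound by MYC and related factors; 9 of the 63 windows (14.3%) and 7.26% of all windows held it. The form ACGTG was found in 24 of the 63 windows (38.1%), against 21.4% of all windows. The windows printed here were picked for holding several ACGTG matches and are not typical of the 39 genes: that of LDHA among the enzymes, and those of BHLHE40 and ANKRD37 among the HIF targets. They are written 5′ to 3′ on the strand of the gene, which is the plus strand for each, with the cores in capitals, and lie at chr11:18394313-18394612, chr3:4979187-4979486 and chr4:185396591-185396890.
LDHA: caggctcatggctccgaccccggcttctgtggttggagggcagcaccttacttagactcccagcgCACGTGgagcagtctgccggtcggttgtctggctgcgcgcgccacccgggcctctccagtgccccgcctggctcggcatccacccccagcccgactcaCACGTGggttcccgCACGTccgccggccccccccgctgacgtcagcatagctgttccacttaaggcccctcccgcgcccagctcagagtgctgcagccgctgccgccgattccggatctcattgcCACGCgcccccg
BHLHE40: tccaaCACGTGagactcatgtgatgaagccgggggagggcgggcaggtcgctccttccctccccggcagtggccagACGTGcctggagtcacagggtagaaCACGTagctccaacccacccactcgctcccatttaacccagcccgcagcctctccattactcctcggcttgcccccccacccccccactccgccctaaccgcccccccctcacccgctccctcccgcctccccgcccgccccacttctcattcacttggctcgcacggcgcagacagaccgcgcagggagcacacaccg
ANKRD37: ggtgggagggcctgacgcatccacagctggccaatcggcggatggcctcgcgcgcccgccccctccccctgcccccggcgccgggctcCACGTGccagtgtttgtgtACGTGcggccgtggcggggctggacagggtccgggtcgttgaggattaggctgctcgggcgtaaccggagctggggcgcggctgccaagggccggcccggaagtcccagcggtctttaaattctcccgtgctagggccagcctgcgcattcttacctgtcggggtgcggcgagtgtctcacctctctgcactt

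Total counts ran from 20139202 to 20856144 in the libraries at 41C and from 19659112 to 19745664 at 37C. The labels do not state whether replicates came from separate cultures, and the p-values therefore reflect library-to-library spread alone, which may be technical. The libraries carried keratinocyte RNA: the 7 keratinocyte markers summed to between 6028 and 6341 CPM (counts scaled to library size) at 41C and between 5271 and 5769 CPM at 37C. Of these markers 6 were tested, of which 2 rose, KRT14 and COL17A1, and 0 fell. The others did not pass, and KRT10 and DSG3 had negative log2 changes (-0.10 and -0.01). Markers of melanocytes, fibroblasts, endothelium and leukocytes each summed to at most 22.4 CPM at 41C and 30.4 CPM at 37C. These sums cover only markers in the count table: 3 of 6 for melanocytes, 5 of 6 for fibroblasts, 3 of 4 for endothelium and 4 of 4 for leukocytes. MLANA, TYR, SOX10, COL1A2 and KDR were not in it. Of 7 proliferation markers 0 rose and 2 fell, the mitotic genes CCNB1 and CDK1; their part in the results on glycolysis and HIF was not tested. The library 37C replicate 3 stood apart: without it 483 genes were higher and 322 lower at 41C, against 99 and 32 with all 6 libraries. It had the lowest HIF1A and TOP2A counts of the 6 libraries.

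The transcripts of glycolysis and of the HIF response were nearly level between the temperatures. Of the 39 genes 1 rose, NDRG1, and 0 fell (edgeR's quasi-likelihood test, Benjamini-Hochberg adjusted p under 0.05 over all genes). That is 2.56% of the 39, while 1.09% of all tested genes passed, 0.821% higher and 0.265% lower. An unadjusted p under 0.05 was reached by 6 of the 39 genes (15.4%), against 13.7% of all tested genes. The 3 libraries at 41C lay wholly above those at 37C in 2 of the 39 genes and wholly below in 3. Over all tested genes 20% had groups that did not overlap, 11.2% higher and 8.84% lower, so the share among the 39 (12.8%) was not above the background. The log2 change was smaller than 0.1 in either direction for 26 of the 39 (66.7%), against 59.5% of all tested genes, and the median was -0.00 over the 39 and 0.00 over all tested genes.

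**Figure D1:**
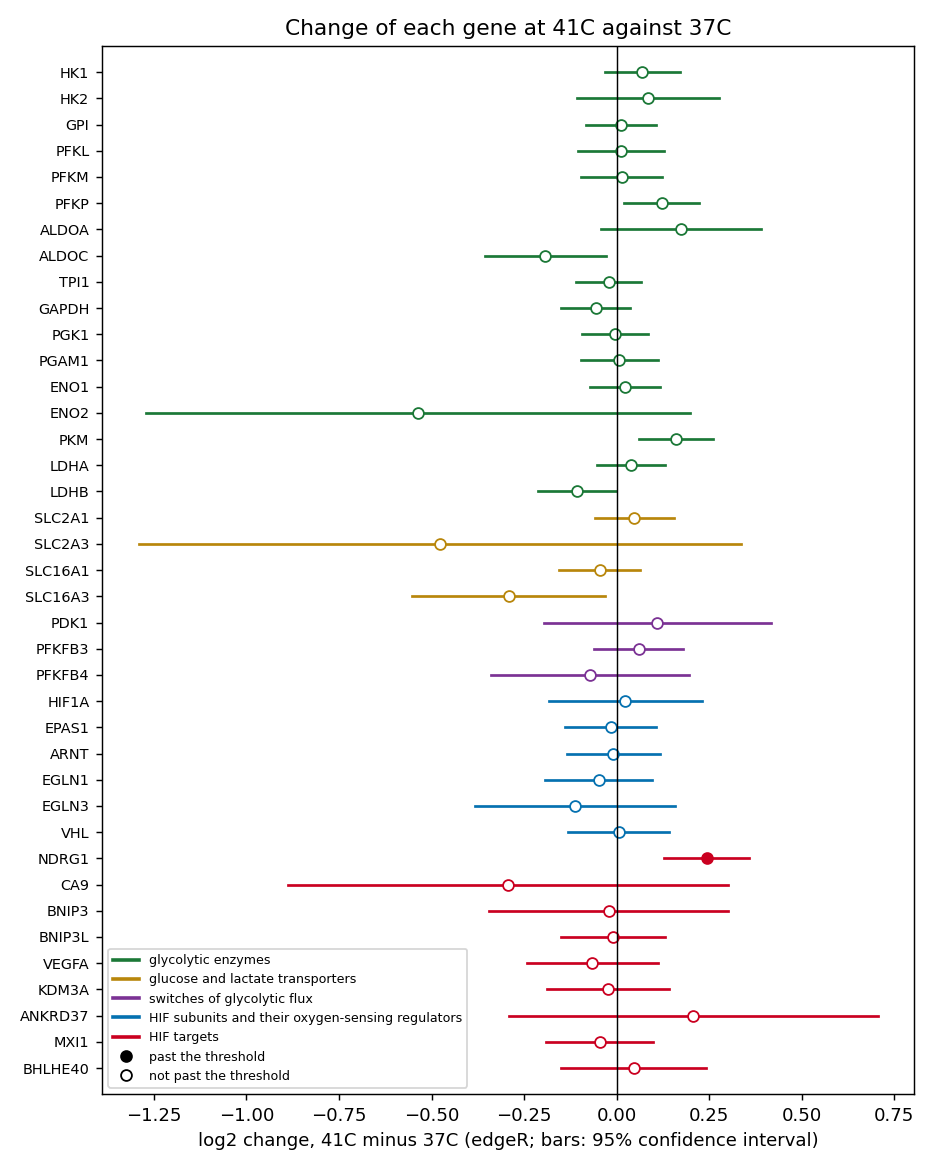
Log2 change at 41C against 37C for each of the 39 genes, with its 95% confidence interval (not adjusted for the number of genes), coloured by class. NDRG1, the filled point, passed the threshold; the widest bars belong to ENO2, SLC2A3 and CA9, which had few counts.

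The enzymes of glycolysis were nearly level at both temperatures, with a median SE of the log2 change of 0.05, against 0.08 over all tested genes. None of the 17 passed the threshold, and 11 had a positive and 6 a negative log2 change. An unadjusted p under 0.05 was reached by 4 of them, 2 higher and 2 lower at 41C. That is 23.5%, above the 13.7% of all tested genes. Their median log2 change was 0.01. GAPDH, which oxidises glyceraldehyde phosphate and is often used as a reference gene, had 4724, 4769.8 and 4822 CPM at 41C, against 4762, 5028 and 5098 CPM at 37C. These ranges overlapped, and the ratio of 41C to 37C was 0.962 with a 95% confidence interval of 0.902 to 1.03. PGK1, which makes the first ATP of the pathway, had the log2 change closest to 0 among the enzymes, at 1024, 1022 and 1022 CPM at 41C, against 986, 1025 and 1066 CPM at 37C (ratio 0.997, interval 0.937 to 1.06). Similarly narrow intervals were found for LDHA, which makes lactate (1.03, interval 0.964 to 1.10), for the enolase ENO1 (1.02, interval 0.952 to 1.08), and for TPI1, which interconverts the triose phosphates (0.985, interval 0.927 to 1.05). For all 13 enzymes with a mean of at least 100 CPM, a level chosen after the values were seen, the interval lay within a 1.25-fold difference in either direction. Without that level it did so for 14 of the 17 enzymes (82.4%), against 65.4% of all tested genes. Over the 39 genes it did so for 27 (69.2%), and for the HIF targets for 5 of 9 (55.6%), below the share of all tested genes. It did so for 5 of 6 HIF subunits and regulators, 2 of 4 transporters and 1 of 3 flux switches.

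PKM, which encodes the muscle-type pyruvate kinase of the last step of glycolysis, was the enzyme nearest to the threshold. It had 4707, 4739 and 4639.6 CPM at 41C, against 4058, 4061 and 4487 CPM at 37C. The libraries at 41C all lay above those at 37C, although 37C replicate 3 came close. The log2 change was 0.16 ± 0.05 (SE), a ratio of 1.12 with an interval of 1.04 to 1.20 (edgeR adjusted p = 0.121). Without 37C replicate 3 the adjusted p was 0.000631 (log2 change 0.21), and PKM also passed with DESeq2 (adjusted p = 0.0470) and with no filter on low counts (adjusted p = 0.0476). PKM passed too with the replicate numbers fitted as a block, as described below. In all, it passed in 4 of 16 alternative fits. The gene lies on the minus strand of chromosome 15, from 72199029 to 72231822 on GRCh38 (GENCODE 29).

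Phosphofructokinase, the committed step of glycolysis, is encoded by 3 genes. The platelet-type gene PFKP had 264.1, 277.1 and 282.0 CPM at 41C, against 245.9, 243.2 and 267.3 CPM at 37C. Here 2 of the 3 libraries at 41C lay above all at 37C (edgeR adjusted p = 0.272, log2 change 0.12 ± 0.05), and PFKP passed without 37C replicate 3 (adjusted p = 0.0130). The liver-type gene PFKL and the muscle-type gene PFKM had ratios of 1.01 each, with intervals of 0.931 to 1.09 and 0.936 to 1.09.

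Among the other enzymes, LDHB and ALDOC were lower at 41C without passing the threshold. LDHB encodes the heart-type subunit of lactate dehydrogenase, which favours the use of lactate. It had 211.8, 194.3 and 191.6 CPM at 41C, against 210.7, 209.1 and 223.6 CPM at 37C, so the groups overlapped (log2 change -0.11 ± 0.05, edgeR adjusted p = 0.358). ALDOC, an aldolase best known from brain, had 31.9, 36.2 and 36.3 CPM at 41C, against 36.3, 41.7 and 41.1 CPM at 37C. The highest library at 41C lay just below the lowest at 37C (edgeR adjusted p = 0.281, log2 change -0.19 ± 0.08). The hexokinases HK1 and HK2, which trap glucose by phosphorylation, had ratios of 1.05 (interval 0.978 to 1.13) and 1.06 (interval 0.928 to 1.21). GPI, the isomerase of the next step, had a ratio of 1.01 (interval 0.945 to 1.08), and the mutase PGAM1 one of 1.00 (interval 0.935 to 1.08). ENO2, the neuronal enolase, rested on 19, 13 and 12 counts at 41C, against 18, 15 and 29 at 37C, and a change of it was not detectable at this depth (ratio 0.689, interval 0.414 to 1.15).

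**Figure D2:**
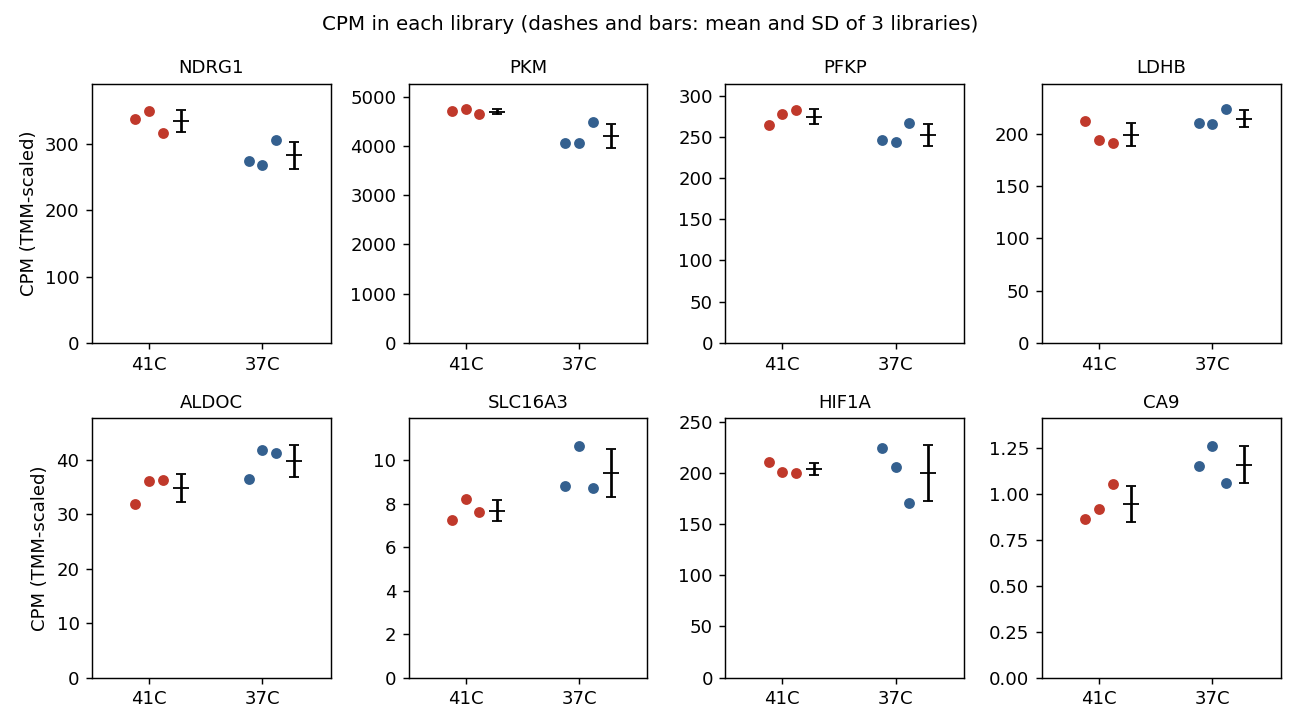
CPM in each library, scaled by TMM factors, for 8 genes at 41C and 37C, with the mean and SD of 3 libraries beside the points. NDRG1 and PKM had all libraries at 41C above those at 37C, ALDOC, SLC16A3 and CA9 had all below, and the other 3 panels overlapped.

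The transporters that carry glucose in and lactate out did not pass the threshold. SLC2A1, the main glucose importer of keratinocytes, had 215.5, 203.4 and 198.7 CPM at 41C, against 194.7, 191.2 and 211.4 CPM at 37C. The groups overlapped, and the ratio was 1.03 with an interval of 0.960 to 1.11. SLC2A3, the neuronal-type importer, had 12, 12 and 10 counts at 41C, against 12, 11 and 23 at 37C, too few to show a change (ratio 0.719, interval 0.409 to 1.26). SLC16A1, a monocarboxylate carrier that works in both directions, had a ratio of 0.969 (interval 0.898 to 1.04). SLC16A3, the lactate exporter of glycolytic cells and a HIF target, had 7.25, 8.20 and 7.61 CPM at 41C, against 8.84, 10.7 and 8.71 CPM at 37C. All libraries at 41C lay below those at 37C, yet the log2 change of -0.29 ± 0.12 did not pass (edgeR adjusted p = 0.303).

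The switches that set the flow of glycolysis also did not pass. PFKFB3 and PFKFB4 make fructose bisphosphate signals that activate phosphofructokinase, and PDK1 blocks the entry of pyruvate into the mitochondrial cycle. PFKFB3 had 113.8 ± 4.88 CPM at 41C and 109.2 ± 6.83 CPM at 37C (SD, n = 3 each; ratio 1.04, interval 0.959 to 1.13). PFKFB4 had 8.63 ± 0.766 CPM at 41C and 9.07 ± 1.16 CPM at 37C (ratio 0.951, interval 0.790 to 1.15). PDK1 had 10.9, 7.33 and 10.3 CPM at 41C, against 8.94, 9.56 and 7.90 CPM at 37C. Its libraries at 41C spanned both sides of those at 37C (edgeR adjusted p = 0.802, log2 change 0.11 ± 0.14).

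The HIF subunits and their regulators were close to equal at both temperatures, with 0 of 6 past the threshold. HIF1A, the alpha subunit of most cells, had 210.3, 200.8 and 199.8 CPM at 41C, against 224.1, 206.1 and 170.6 CPM at 37C. The libraries at 41C lay inside the range of those at 37C, with 203.6 ± 5.83 CPM at 41C and 200.3 ± 27.2 CPM at 37C (SD, n = 3 each). The log2 change of HIF1A was 0.02 ± 0.09 (edgeR adjusted p = 0.944), and -0.08 without 37C replicate 3 (adjusted p = 0.336). EPAS1, the second alpha subunit, had a ratio of 0.989 (interval 0.908 to 1.08) and ARNT one of 0.994 (interval 0.911 to 1.09). VHL, which recognises the hydroxylated alpha subunit, had 48.7 ± 2.65 CPM at 41C and 48.5 ± 1.88 CPM at 37C (SD, n = 3 each; ratio 1.00, interval 0.914 to 1.10). The hydroxylase EGLN1 had a ratio of 0.967 (interval 0.875 to 1.07). EGLN3, a hydroxylase that HIF itself induces, had 6.48, 6.65 and 6.25 CPM at 41C, against 6.48, 7.49 and 6.99 CPM at 37C, and its groups overlapped (ratio 0.925, interval 0.767 to 1.12).

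NDRG1 rose 1.18-fold at 41C. It encodes a cytoplasmic protein that is induced by hypoxia, and also by metal ions and differentiation, and that MYC family factors repress. It had 337.9, 349.6 and 317.2 CPM at 41C, against 274.2, 267.9 and 306.6 CPM at 37C. The lowest library at 41C lay above the highest at 37C by a small margin. The log2 change was 0.24 ± 0.05 (interval of the ratio 1.09 to 1.28, edgeR adjusted p = 0.0427). Of the 99 genes that rose it ranked 60 by fold and 88 by p-value, and their median fold was 1.20. The call rested on all 6 libraries but 1: it remained without 37C replicate 3 and was lost without each of the others, at adjusted p from 0.0653 to 0.319. It was also lost with upper-quartile scaling (adjusted p = 0.0701), with a correction for gene length (0.0832), and with log2(FPKM + 1) or log2(FPKM + 0.1) (0.157 and 0.149). A fit with the replicate numbers as a block, described below, lost the call too. In all, NDRG1 passed in 6 of 16 alternative fits, and its log2 change was positive in each of the 16, from 0.20 to 0.31. The gene spans 133237171 to 133302022 on the minus strand of chromosome 8 (GRCh38, GENCODE 29).

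The other 8 HIF targets did not pass, and their ratios lay on both sides of 1. The median log2 change over all 9 targets, NDRG1 included, was -0.02, against 0.01 for the enzymes. Between replicate libraries the class median had an SD of 0.0408 for the enzymes and 0.0449 for the targets. This SD describes single libraries and is not the error of the difference between the 2 medians, which was not tested. Of the targets 3 had a positive log2 change. VEGFA, the main angiogenic factor of keratinocytes, had 136.6, 149.3 and 129.6 CPM at 41C, against 148.5, 127.8 and 158.5 CPM at 37C, and the groups overlapped (log2 change -0.07 ± 0.08, edgeR adjusted p = 0.786). CA9, a cell-surface carbonic anhydrase that is among the targets most dependent on HIF, had 18, 19 and 21 counts at 41C, against 23, 25 and 21 at 37C. In CPM its libraries at 41C lay just below those at 37C, but with these counts the interval of the ratio ran from 0.541 to 1.23 (edgeR adjusted p = 0.711). The mitophagy receptors BNIP3 and BNIP3L had ratios of 0.985 (interval 0.787 to 1.23) and 0.994 (interval 0.902 to 1.10).

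Targets that act on chromatin and transcription were as even. The histone demethylase KDM3A had a ratio of 0.984 (interval 0.878 to 1.10), the MYC antagonist MXI1 one of 0.969 (interval 0.877 to 1.07), and the circadian repressor BHLHE40 one of 1.03 (interval 0.902 to 1.18). BHLHE40 varied more among the libraries at 41C, at 116.7, 149.1 and 142.6 CPM, than among those at 37C, at 123.5, 137.3 and 134.8 CPM. ANKRD37, a small ankyrin-repeat protein with few known roles, had 55, 54 and 60 counts at 41C, against 61, 50 and 31 at 37C (ratio 1.15, interval 0.818 to 1.63). BHLHE40, ANKRD37 and LDHA, whose promoters are printed above, are thus among the genes that did not pass.

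**Figure D3:**
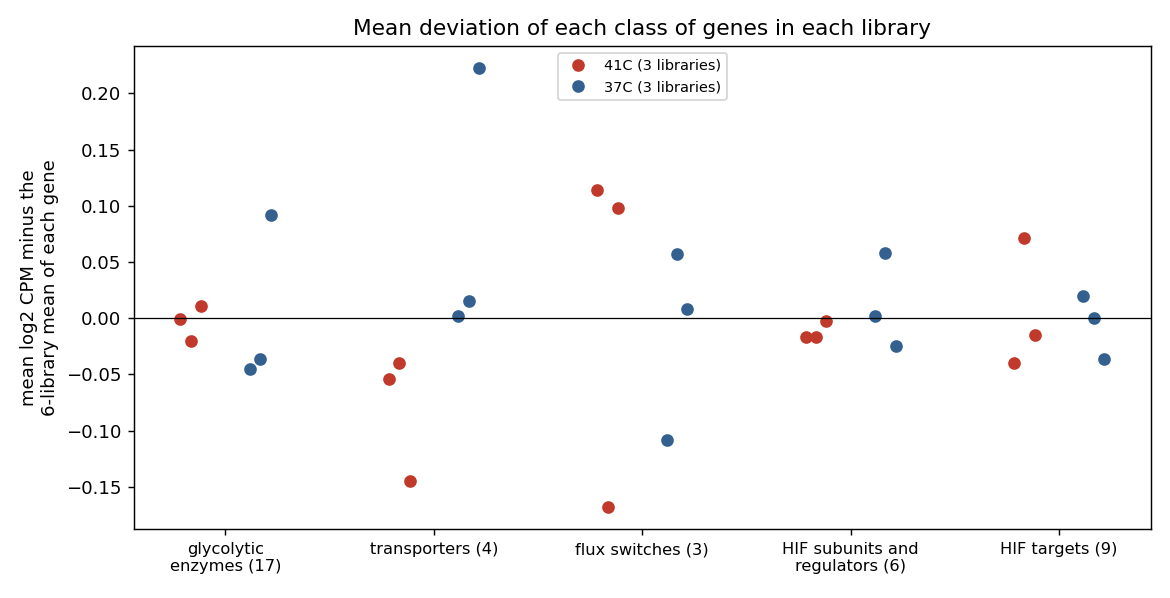
Mean over each class of the log2 CPM of its genes, each gene taken relative to its own mean over the 6 libraries, at 41C and 37C. For the enzymes and for the HIF targets the groups overlapped; 37C replicate 3 was the highest library for the enzymes and the transporters.

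By library, the classes varied as much within a temperature as between them. The enzymes deviated from their 6-library mean by -0.00, -0.02 and 0.01 (log2) on average at 41C, and by -0.05, -0.04 and 0.09 at 37C. The 0.09 of 37C replicate 3 included the low-count gene ENO2, which deviated by 0.73 there. Median deviations of the enzymes were 0.01, -0.01 and 0.03 at 41C, against -0.05, -0.03 and 0.05 at 37C. The HIF targets deviated on average by -0.04, 0.07 and -0.02 at 41C, and by 0.02, 0.00 and -0.04 at 37C. The groups of both classes overlapped, and by mean deviation the library at the top was 37C replicate 3 for the enzymes and 41C replicate 2 for the HIF targets. The mean deviation over the 4 transporters was -0.05, -0.04 and -0.15 at 41C, against 0.00, 0.01 and 0.22 at 37C, with no overlap. Their median deviation was -0.04, -0.03 and -0.13 at 41C, against 0.00, -0.05 and 0.05 at 37C, and there the groups overlapped. The highest of the means included the low-count gene SLC2A3, which had 23 counts in that library.

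Levels per length allow transcripts of different isoenzymes to be set side by side. FPKM (fragments per kilobase and library size) is the authors' own scale, with 1 fixed length per gene, and covers all 39 genes on 1 axis. GAPDH was highest, at 3179 ± 12.3 FPKM at 41C and 3348 ± 98.6 FPKM at 37C, followed by PKM, LDHA, ENO1 and TPI1. PKM had 1389.7 ± 23.4 FPKM at 41C and 1259 ± 67.1 FPKM at 37C, and LDHA had 766 ± 19.0 FPKM at 41C and 755 ± 22.7 FPKM at 37C (SD, n = 3 each). The highest HIF target was NDRG1, at 66.9 ± 3.64 FPKM at 41C and 57.2 ± 3.92 FPKM at 37C, and the lowest was CA9, at 0.609 ± 0.0596 FPKM at 41C and 0.756 ± 0.0673 FPKM at 37C. ALDOA, usually the main aldolase, was listed at only 8.43 ± 0.993 FPKM at 41C and 7.57 ± 0.490 FPKM at 37C, below ALDOC, at 20.7 ± 1.40 FPKM at 41C and 24.0 ± 1.66 FPKM at 37C. GENCODE 29 places a second protein-coding gene, AC093512.2, over exons of ALDOA on the same strand. AC093512.2 is not among the symbols of the count table. Whether reads were lost or assigned to it before that table was made was not tested. The level and the log2 change of ALDOA (0.17 ± 0.10, edgeR adjusted p = 0.480) are therefore uncertain.

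**Figure D4:**
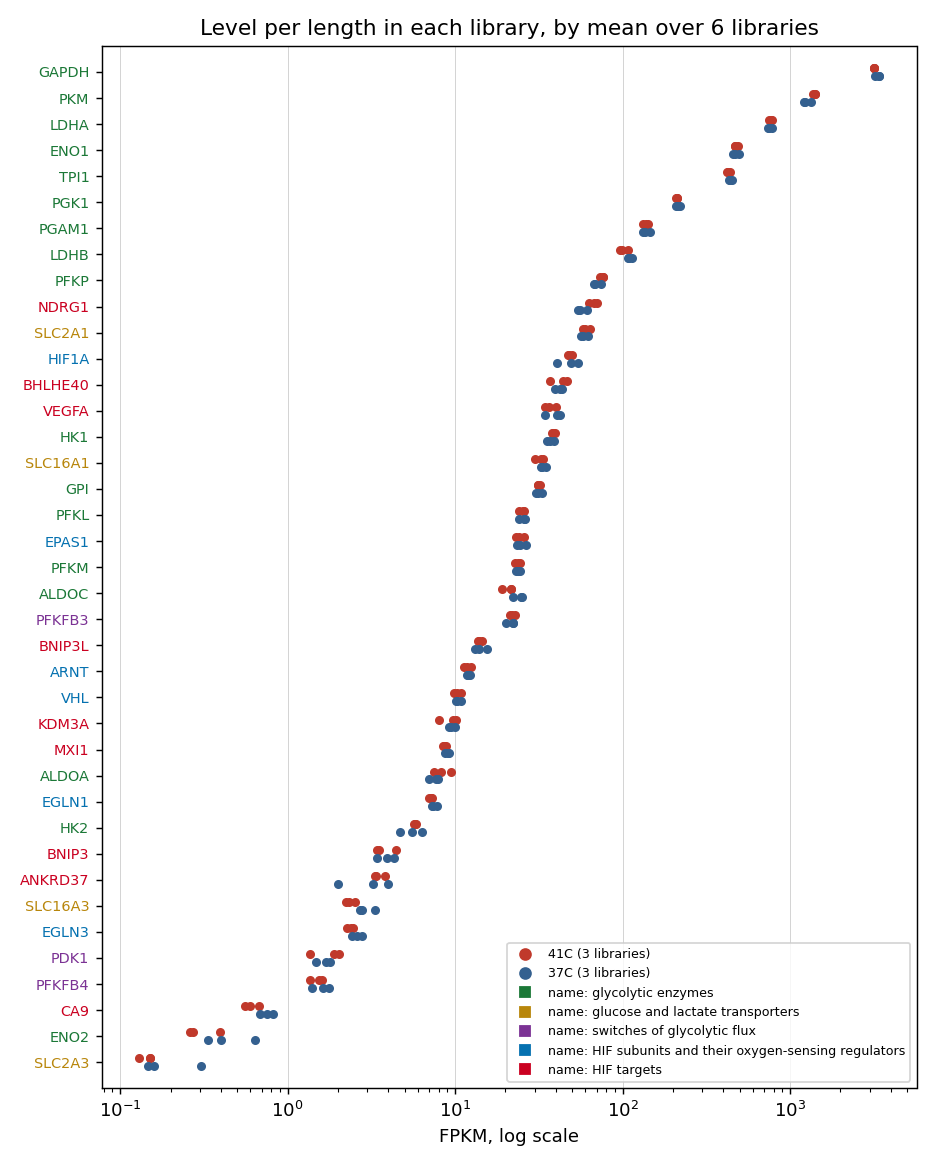
FPKM of each gene in each library on a log axis, ordered by the mean over 6 libraries, with the libraries at 41C drawn above those at 37C. The genes span from GAPDH, with 3179 ± 12.3 FPKM at 41C and 3348 ± 98.6 FPKM at 37C, to SLC2A3, with 0.144 ± 0.0122 FPKM at 41C and 0.203 ± 0.0877 FPKM at 37C.

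Within families, 1 gene made up most of the transcripts at both temperatures. HK1 held 87.0% ± 0.103 of the summed FPKM of both hexokinases at 41C and 87.1% ± 1.96 at 37C, and HIF1A held 66.5% ± 1.81 of the summed FPKM of both alpha subunits at 41C and 65.7% ± 3.74 at 37C (SD, n = 3 each). SLC2A1 held 99.8% ± 0.0145 of its pair at 41C and 99.7% ± 0.127 at 37C. In 5 of the 10 families the libraries of the 2 temperatures did not overlap in at least 1 share; these shares were not tested, and no background of other families was computed. LDHA held 87.7, 88.3 and 89.0% of lactate dehydrogenase transcripts at 41C, against 87.2, 87.3 and 87.2% at 37C. All libraries at 41C lay above those at 37C by a small margin, and the libraries at 37C were nearly identical. PFKP held 60.8, 60.3 and 60.9% of phosphofructokinase transcripts at 41C, against 59.3, 57.6 and 59.6% at 37C, again with no overlap. Shares of ALDOA in the aldolases and of SLC16A1 in the lactate carriers were also higher in all libraries at 41C, although the level of ALDOA is uncertain. The share of SLC2A1 was higher too, but it rests on the low counts of SLC2A3. Its lowest library at 41C had 99.747% and its highest at 37C 99.743%. BNIP3L with 78.7% ± 1.99 at 41C and 78.4% ± 3.33 at 37C, and PFKFB3 with 93.6% ± 0.443 at 41C and 93.1% ± 0.487 at 37C, were the main genes of their pairs, and their groups overlapped.

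The rest of the pathway was taken from lists of 143 other genes, of which 113 were tested, and their median log2 change was -0.00. Over 50 other tested HIF targets the median log2 change was -0.01. Of these 1 passed the threshold, higher at 41C (2%, against 1.09% of all tested genes), and it is not reported here by name. An unadjusted p under 0.05 was reached by 9 (18%, against 13.7% of all tested genes). In 15 the groups did not overlap (30%, against 20%), 9 higher and 6 lower at 41C. DDIT4, a hypoxia-induced inhibitor of mTOR signalling, had 495.3, 537.5 and 548.4 CPM at 41C, against 571.7, 637.4 and 607.3 CPM at 37C. Its libraries at 41C all lay below those at 37C (edgeR adjusted p = 0.0674, log2 change -0.20 ± 0.05), opposite in direction to NDRG1. PLOD1, a collagen-modifying enzyme, did not pass either, with an edgeR adjusted p of 0.114 (log2 change 0.22 ± 0.06).

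Partners of HIF and the neighbouring pathways gave 0 calls. Of 16 tested partners of HIF, 5 had an unadjusted p under 0.05 (31.2%, against 13.7% of all tested genes), and in 7 the groups did not overlap (43.8%, against 20%), 4 higher and 3 lower at 41C. The groups did not overlap in 3 of 13 genes of pyruvate entry and in 0 of 7 of the pentose phosphate pathway. Among these subunits, hydroxylases and partners of HIF, the lowest p-values belonged to the coactivator CREBBP (log2 change 0.19 ± 0.05, edgeR adjusted p = 0.0617), the chaperone HSP90AB1, which holds HIF1A in an active shape (0.13 ± 0.04, adjusted p = 0.179), and RBX1, a subunit of the VHL ubiquitin ligase (-0.19 ± 0.07, adjusted p = 0.212). Among 13 genes of pyruvate entry into mitochondria, the carrier subunit MPC2 had 50.2, 51.5 and 52.2 CPM at 41C, against 58.2, 58.8 and 61.7 CPM at 37C. The groups did not overlap, and the log2 change of -0.22 ± 0.06 did not pass (edgeR adjusted p = 0.0893). PDHB, a subunit of pyruvate dehydrogenase, and the phosphatase PDP1, which activates that complex, had log2 changes of -0.14 ± 0.07 and -0.09 ± 0.05 (adjusted p = 0.375 and 0.486). The 7 genes of the pentose phosphate pathway had a median log2 change of -0.02. RPE and PGLS, an epimerase and a lactonase of that pathway, had log2 changes of -0.11 ± 0.07 and -0.08 ± 0.06 (adjusted p = 0.555 and 0.630).

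Of 12 other tested genes grouped with the glycolytic enzymes by name or function, PGM2, PGAM5 and ENO3 had the lowest p-values (log2 changes -0.12, 0.09 and -0.28; adjusted p = 0.397, 0.483 and 0.547). Of 15 other tested transporters and flux switches these were SLC2A4, SLC2A6 and SLC2A9 (-0.49, 0.16 and -0.17; adjusted p = 0.337, 0.486 and 0.509). SLC2A4, the insulin-responsive glucose importer of muscle and fat, had a mean of 1.70 ± 0.262 CPM at 41C and 2.39 ± 0.116 CPM at 37C (SD, n = 3 each).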

How the data were processed

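Gene counts were measured by poly(A) RNA sequencing of 3 HaCaT libraries at 41C and 3 at 37C. Per the labels' protocols, RNA was extracted with a mirVana kit and libraries were built with a TruSeq Stranded mRNA kit. The submitters' processing notes name Trimmomatic 0.36, HISAT2 and GRCh38.p13. Not given in the sources used here: the HISAT2 version, the read counter, its annotation and its use of strand. The deposited counts are whole reads per symbol, not normalized. The FPKM values deposited by the authors equal the counts per kilobase of 1 fixed length and library total, within 0.01% for 100% of nonzero values, so they carry no independent measurement.

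Counts were tested across all genes with edgeR 4.0.16 in R 4.3.3 (filterByExpr, TMM factors, robust quasi-likelihood fit, two-sided, Benjamini-Hochberg adjustment over 12056 genes, threshold 0.05). CPM are TMM-scaled, except marker sums; log2 changes are given ± SE, and 95% intervals use the same fit and are not adjusted. With 3 libraries against 3 an exact permutation test cannot go below p = 0.1, so single genes rest on the spread shared across genes. Class medians and shares are descriptions without a test. The genes and lists were chosen with earlier results of these data known. Besides the 39 genes, the text names, per further list, genes past the threshold and the 3 with the lowest p-values; some of these are not reported here. The fit was checked on simulated counts. Alternatives were DESeq2 1.42.0, limma-voom (limma 3.58.1), other scalings and filters, limma on log2 FPKM, a length correction (splines with 4 degrees of freedom), a replicate block and each library left out.

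The sources used here do not say how reads matching several copies were counted. GENCODE 29 lists pseudogenes named after 16 of the 39 genes, 62 for GAPDH, 39 for BNIP3 and 13 for PGAM1, and exons of another gene on the same strand for 9 and on the opposite strand for 19. None of the named pseudogenes is among the symbols of the count table. Values of genes with such copies or overlaps are uncertain to that extent.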

Additional observations from a re-analysis of the deposited data

How the results depend on the processing

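Of the 39 genes, NDRG1, PKM and PFKP changed sides of the threshold in at least 1 of the 16 alternative fits; no other did, although DESeq2 gave an adjusted p for 21 of the 39. Counts of genes higher and lower at 41C over all genes, 99 and 32 as reported, were 57 and 53 with upper-quartile scaling, 184 and 100 with no filter, 161 and 56 with DESeq2, 5 and 6 with log2(FPKM + 1), 22 and 18 with log2(FPKM + 0.1), and 4 to 483 and 1 to 322 when 1 library was left out. Of the 39, the number higher was 0 with upper-quartile scaling, either FPKM scale or the length correction, 2 (NDRG1 and PKM) with no filter or DESeq2, and 0 to 3 with 1 library left out; the 3 were NDRG1, PKM and PFKP, without 37C replicate 3. The number lower was 0 throughout. The cause of these shifts was not tested.

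The replicate block gave 297 genes higher and 141 lower, and of the 39 only PKM passed (log2 change 0.16, adjusted p = 0.0177), with NDRG1 at an adjusted p of 0.110. Deviations of same-numbered libraries correlated at 0.08, -0.02 and 0.08, and those of differently numbered libraries at -0.14 to 0.07. Replicates 1 and 3 at 41C correlated best with their own number, and 41C replicate 2 with 37C replicate 1. These weak correlations do not settle whether the libraries were paired. The labels name no pairing, so the main fit did not take the numbers as pairs.

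The median log2 change was -0.02 to 0.05 for the enzymes and -0.06 to 0.01 for the HIF targets over the 16 fits, each within 1 SD between libraries. Of the 39 log2 changes, 21 changed sign in at least 1 fit, none of them past the threshold; those of TPI1 and GAPDH were 0.02 and 0.00 with the length correction, against -0.02 and -0.06 as reported. At this depth ENO2, SLC2A3 and CA9, with under 30 counts in each library, could not show changes smaller than their intervals.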

Other observations

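Some values stood out without belonging to a comparison. The share of LDHA in lactate dehydrogenase transcripts had an SD of 0.642 percentage points among the libraries at 41C and 0.0289 at 37C, whereas HIF1A had the opposite spread, with an SD of 5.83 CPM at 41C and 27.2 CPM at 37C. With 3 libraries per group these spreads were not tested. NDRG1 and DDIT4, both known as hypoxia-induced genes, lay on opposite sides with no overlap between the temperatures, but DDIT4 did not pass (edgeR adjusted p = 0.0674). DDIT4 was 1 of 15 among the 50 other tested HIF targets whose groups did not overlap (30%, against 20% of all tested genes). Of these 9 were higher and 6 lower at 41C.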
